A study of Neurospora crassa OR74A with 15 samples.

Results

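The genes described here lie close to the ends of the 7 assembled contigs (10.1 to 10.7) of the filamentous fungus Neurospora crassa. A gene was a member when it lay wholly within 75 kb of a contig end, the end being the outermost gene edge that the tables hold on that side. This gave 299 of 9733 genes, or 3.07%, from 14 contig ends, with 6 members at the right end of contig 10.1 and up to 29 at the right end of contig 10.5. The choice used positions only and no expression value. The ends are those of annotated genes: the first gene of contig 10.5, for example, starts at position 19053, and bases beyond the outermost gene could not be considered.

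The regions next to chromosome ends are called subtelomeres. In many fungi they hold genes that are used under particular conditions, such as those for secreted enzymes, nutrient uptake and secondary metabolites, and in Neurospora crassa chromosome ends are packed partly in repressive chromatin. Contig ends in an assembly need not be chromosome ends, and the data here hold RNA levels only. Neurospora crassa grows on dead plant material, sensing the available polysaccharide and producing enzymes that cut it into sugars.

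All cultures were strain FGSC 2489, a wild type, raised from 10-day-old conidia (asexual spores) for 16 h on 2% sucrose, washed, and kept for 4 h in the new medium before the mycelia were collected. Sucrose (2%), Avicel (2%, a microcrystalline cellulose) and medium without carbon had 3 libraries each, pectin (1%) had 3, orange peel powder (1%, ground citrus peel, which contains pectin) had 2, and xylan (2%, a hemicellulose) had 1. The labels assign the 9 libraries on sucrose, on Avicel and without carbon to earlier work and the 6 others to the present study, so for pectin or orange peel powder against no carbon the carbon source and the origin of the libraries cannot be told apart. The replicates are called biological, and every culture carried the same genotype.

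Levels are FPKM, sequenced fragments scaled to transcript length and to library size, so that genes can be compared. Mapped sequence could be derived for the 9 earlier libraries and lay between 60.4 megabases (Avicel replicate 1) and 1052 (no carbon replicate 3), with sucrose replicate 1 at 61.9. The number of members listed at 0 ranged from 16 to 90 by library, with sucrose replicate 1 at the top, and 11 were listed at 0 in all 15. RNA of 6 genes taken as conidial markers, of which con-6 is itself near a contig end, differed with the carbon source. Their summed level was 528 to 1776 FPKM on sucrose, 345545 to 384146 without carbon, 92974 to 158449 on Avicel, 16027 to 41876 on pectin, 15165 to 25755 on orange peel powder and 26093 on xylan. Most of the sum was ccg-1 on sucrose, pectin, orange peel powder and xylan (means of 1022, 23501, 18593 and 24537 FPKM). It was also most of the sum in every Avicel library (mean 108815 FPKM). Without carbon ccg-1 had a mean of 243038 FPKM, but in replicate 1 the marker eas stood above it (206272 against 171706). The marker fl differed little among sucrose, pectin, orange peel powder and xylan. It had 28.1 to 37.6 FPKM on sucrose, 24.8 to 52.6 on pectin, 29.0 and 39.9 on orange peel powder and 37.5 on xylan. All 6 markers were higher in every library without carbon, and in every library on Avicel, than in any on sucrose. The marker con-10 was listed at 0 in 2 sucrose libraries, and con-6 and con-8 in 1. In bulk RNA, more sporulating cells and more such RNA per cell cannot be told apart, and the part of sporulation in the results below was not tested. Nor was it tested whether ccg-1 or the other markers follow the carbon source without any sporulation.

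Genes near contig ends had low levels on sucrose, and levels nearer to those of other genes in all 5 other conditions. On sucrose the median member stood at 25.1, 26.2 and 27.1 FPKM in the 3 libraries, and the median of the 9434 other genes at 72.1, 79.6 and 80.1. Without carbon the members' medians were 65.5, 69.5 and 76.8 FPKM against 91.2, 90.9 and 93.3. The members thus lay below the other genes in each of these 6 libraries, and the distance was wider in all 3 sucrose libraries than in any without carbon.

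On Avicel the members' medians were 66.6, 78.3 and 82.9 FPKM against 81.9, 89.5 and 88.6 for other genes. On pectin they were 68.9, 65.9 and 67.7 FPKM against 88.1, 88.4 and 92.7, on orange peel powder 71.6 and 74.8 against 89.7 and 92.5, and in the xylan library 60.8 against 88.8. Expressed as the median log2(FPKM + 1) of members minus that of other genes, the difference was -1.53 ± 0.04 on sucrose, -0.38 ± 0.10 without carbon, -0.19 ± 0.10 on Avicel, -0.41 ± 0.05 on pectin (SD, n = 3 each), -0.31 ± 0.01 on orange peel powder (SD, n = 2) and -0.54 on xylan. Genes are not replicates, so this description carries no test.

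**Figure D1:**
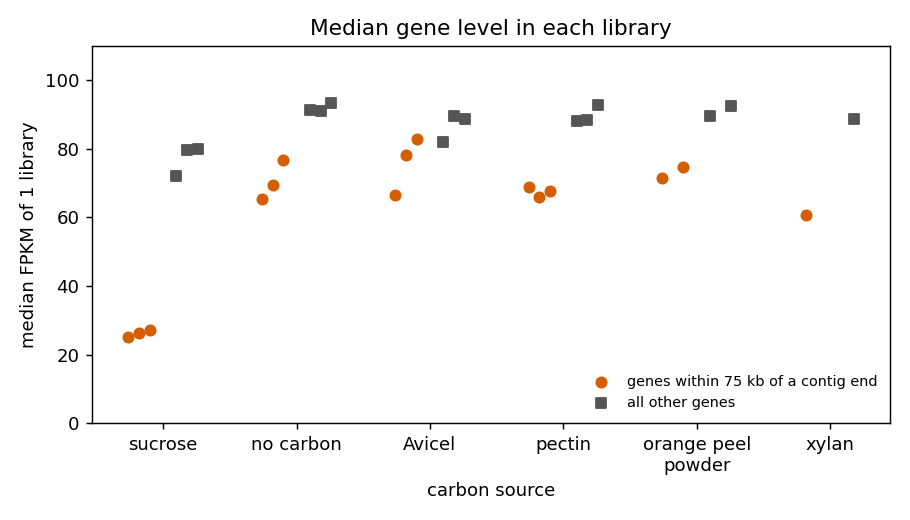
Median FPKM of the 299 genes within 75 kb of a contig end (circles) and of the 9434 other genes (squares) in each of the 15 libraries, grouped by carbon source. The circles lie under the squares in every library, at 25.1 to 27.1 FPKM on sucrose and at 60.8 to 82.9 in the other conditions.

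Averaged over the 6 conditions, the median member had 81.0 FPKM and the median other gene 103. At least 100 FPKM was reached by 44.5% of members and 50.7% of other genes, and at least 1000 by 23 members (7.69%) and 687 other genes (7.28%), while 35 members stayed under 1 (11.7%, against 11.1% of other genes). Sucrose was the condition of highest mean level for 55 members (18.4%, against 26.2% of other genes), medium without carbon for 100 (33.4% against 32.2%), Avicel for 42 (14% against 11.4%), pectin for 27 (9.03% against 8.17%), orange peel powder for 41 (13.7% against 8.28%) and xylan for 23. Among genes with enough signal for testing, the span between the lowest and highest condition mean had a median of 2.29 log2 units for members and 1.66 for other genes. The median transcript was 1458 bases long among members and 1605 among other genes.

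The low levels were not limited to the 75 kb window. The 101 members within 25 kb of an end had a median of 56.6 FPKM over the 6 conditions, the 95 from 25 to 50 kb had 81.4, and the 103 from 50 to 75 kb had 89.0. Beyond the window, the 255 genes from 75 to 150 kb and the 554 from 150 to 300 kb were lower still, at 44.4 and 41.2 FPKM, and the 8625 genes farther inside had 109. In the 3 sucrose libraries the medians were 11.9, 13.8 and 9.10 FPKM within 25 kb, 48.2, 56.1 and 58.0 from 50 to 75 kb, 9.65, 12.1 and 10.9 from 150 to 300 kb, and 79.7, 87.9 and 88.1 beyond 300 kb. From 75 to 150 kb the sucrose medians were 14.1, 16.9 and 14.5 FPKM. The outermost 25 kb and the stretch at 150 to 300 kb were thus alike in holding the lowest sucrose medians, with 75 to 150 kb next. The part of the window from 25 to 75 kb lay between these and the interior.

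**Figure D2:**
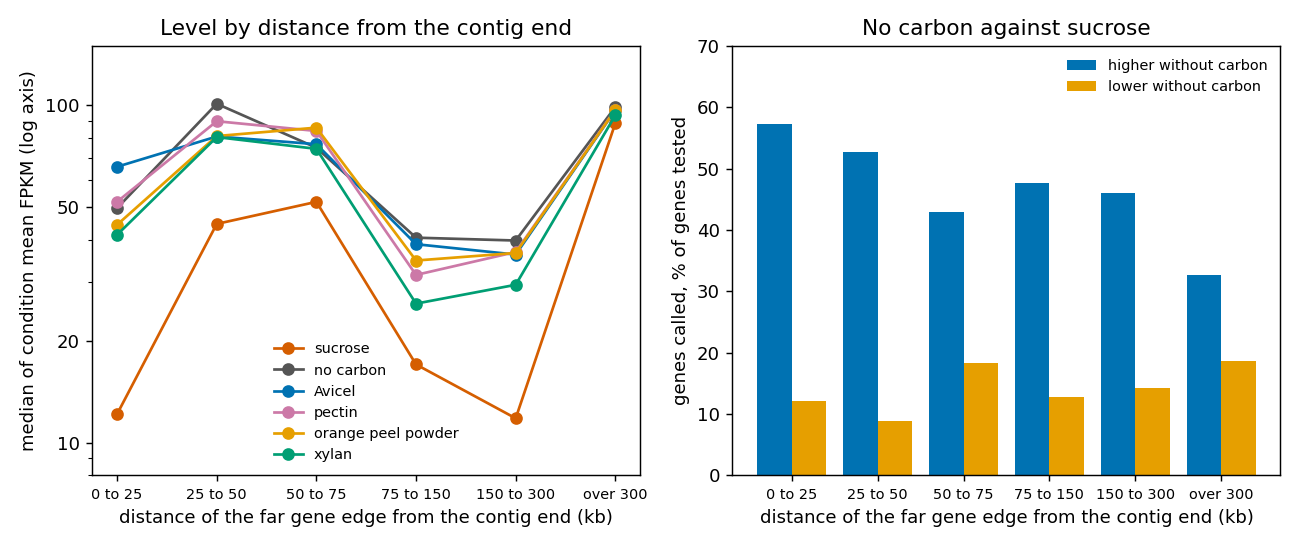
Left, the median of the condition mean FPKM (log axis) by distance of the gene's far edge from the contig end in kb, 1 line for each of the 6 conditions; right, the percentage of tested genes called higher or lower without carbon than on sucrose in the same distance classes. Sucrose levels are lowest within 25 kb (12.2 FPKM) and from 150 to 300 kb (11.8), and the share called higher goes from 57.3% within 25 kb to 43.0% at 50 to 75 kb, 47.7% and 46.0% in the next classes and 32.6% beyond 300 kb.

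Most tested genes near contig ends differed in level between medium without carbon and sucrose, a comparison that addresses what starvation alone does after growth on sugar. Of the 299 members, 266 averaged 1 FPKM or more across the 14 replicated libraries and were tested, and 33 were not. Calls were made with limma on log2(FPKM + 1), a scale that understates changes of low genes, and required an adjusted p (Benjamini-Hochberg) under 0.05 together with a log2 fold change of 1 or more in size. Without carbon, 170 of the 266 were called, or 63.9%, where 52.3% of all 8700 tested genes were. Of these, 135 were higher (50.8%, against 34.2% of all genes) and 35 were lower (13.2%, against 18%). The median log2 fold change was 1.07 over the tested members and 0.38 over all tested genes.

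The balance of the calls depended on how the libraries were scaled. With all libraries forced to the same distribution (quantile normalization), 93 members were higher and 48 lower. Of all 8700 tested genes 45.5% were called, 1993 higher and 1964 lower. The median log2 fold change was 0.36 over members and -0.05 over all genes. The shares by distance and by contig end that follow were counted without quantile normalization, and were not recounted with it. By distance, 57.3% of tested members within 25 kb were higher without carbon, 52.7% from 25 to 50 kb and 43.0% from 50 to 75 kb. Beside these stood 47.7% and 46.0% of the tested genes at 75 to 150 and 150 to 300 kb, and 32.6% farther inside. More members were higher than lower at 13 of the 14 ends, from 2 against 1 at the right end of contig 10.1 to 14 against 1 at the left end of contig 10.2. The left end of contig 10.1 was the exception, with 4 higher and 5 lower.

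**Figure D3:**
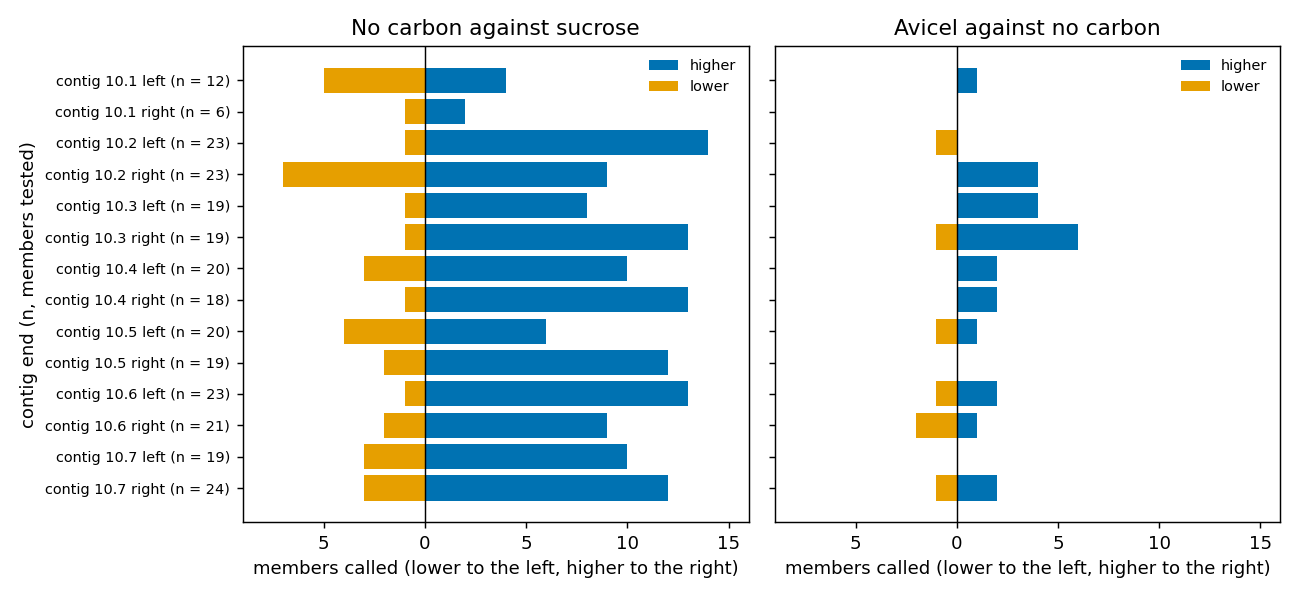
Members called lower (bars to the left) and higher (bars to the right) at each of the 14 contig ends, with the number tested in brackets, for no carbon against sucrose (left) and Avicel against no carbon (right). Without carbon, 13 ends have more members higher than lower, and the 25 higher calls on Avicel are spread over 10 ends, with 6 at the right end of contig 10.3.

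The members with the largest increases without carbon were nearly silent on sucrose. NCU09287 (contig 10.7, positions 4181893 to 4184394) was listed at 0 and stood at 11.4 and 5.11 FPKM in the 3 sucrose libraries, and at 3548, 4333 and 5127 without carbon. Its log2 fold change was 9.99 (SE 0.68, limma adjusted p = 1.1e-07). It stood at 1381 FPKM or more in every library on Avicel, pectin, orange peel powder and xylan, so sucrose was the one condition in which it was low.

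At the right end of contig 10.3 the conidiation gene con-6 (NCU08769, positions 5205042 to 5205927) and its neighbour NCU08770 (positions 5203616 to 5204342) were higher together. The con-6 gene, whose RNA is made during spore formation, was listed at 0 in sucrose replicate 1, with 8.01 and 3.85 FPKM in the other sucrose libraries and 1516, 5383 and 4879 without carbon. NCU08770 was listed at 0 in sucrose replicates 1 and 3, with 3.0 FPKM in replicate 2 and 149, 246 and 941 without carbon. The groups did not overlap for either gene, and the log2 fold changes were 9.92 and 7.69 (limma adjusted p = 4.14e-07 and 6.93e-07). They lie in a stretch of 4 neighbours, NCU08771 to NCU08768, that were all called higher without carbon.

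NCU05005 (contig 10.6, positions 4115993 to 4117080) was listed at 0 in all 3 sucrose libraries and stood at 368, 623 and 952 FPKM without carbon (limma adjusted p = 1.35e-08, no fold change being given against a group listed at 0). The carotenoid oxygenase gene cao-2 (NCU11424, contig 10.7, positions 4250526 to 4252821) had 75.2, 52.5 and 53.7 FPKM on sucrose and 260, 589 and 1151 without carbon, a log2 fold change of 3.21 (adjusted p = 3.1e-05). The groups did not overlap for either gene, and the 3 libraries without carbon differed among themselves by more than 2-fold in both. The polyketide synthase gene pks-5 (NCU09638), a gene of secondary metabolism, and gh13-3 (NCU09486), of the glycoside hydrolase family that holds alpha-amylases, were also called higher, with log2 fold changes of 2.41 and 2.94.

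The members called lower without carbon included a chaperone, enzymes and carriers with high levels on sucrose. The chaperone gene hsp70-1 (NCU09602, contig 10.2, positions 79807 to 82656), which encodes an Hsp70 protein that helps proteins fold, had 13005, 12236 and 13801 FPKM on sucrose and 277, 501 and 378 without carbon. Its log2 fold change was -5.11 (SE 0.48, limma adjusted p = 1.66e-06). It lay 73.7 kb from the end, among the last genes that the window took in.

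Among genes of amino acid supply, his-6 (NCU07156), of histidine synthesis, stood at 1358, 915 and 947 FPKM on sucrose and 105, 130 and 105 without carbon, a log2 fold change of -3.22 (limma adjusted p = 6.98e-07). The basic amino acid permease gene pmb (NCU05168) stood at 865, 739 and 848 FPKM against 46.7, 145 and 31.7, a log2 fold change of -3.74 (adjusted p = 2.36e-05). Both genes were low in every library without carbon, with no overlap between the groups. The kinase gene stk-52 (NCU08767) was lower as well, with a log2 fold change of -2.90.

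Members without a symbol had the other large decreases. NCU09488 (contig 10.2, positions 4439455 to 4442015) had 80.3, 423 and 438 FPKM on sucrose, its lowest value in the shallow replicate 1, and 3.53, 5.0 and 3.61 without carbon. NCU09648 (contig 10.4, positions 62206 to 63824) had 464, 407 and 359 FPKM against 10.7, 14.2 and 14.3. NCU09521 (contig 10.3, positions 20048 to 21833) had 184, 639 and 776 FPKM against 11.7, 22 and 15.8. The log2 fold changes were -5.63, -4.87 and -4.73 (limma adjusted p = 2.04e-05, 6.55e-07 and 4.98e-06), and no library without carbon reached the sucrose range.

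At the right end of contig 10.2, a trio of adjacent members were among the most abundant RNAs near any contig end. The aac gene (NCU09477, positions 4405588 to 4407556) encodes the mitochondrial ADP/ATP carrier, which exports ATP made by respiration. It had 68191, 67286 and 75624 FPKM on sucrose, 5388, 8975 and 5842 without carbon, 12498, 4690 and 4591 on Avicel, 19269, 18734 and 22772 on pectin, 20006 and 17407 on orange peel powder and 20035 on xylan. Sucrose libraries were highest and did not overlap with any other condition, and pectin, orange peel powder and xylan lay between them and the libraries without carbon. Its log2 fold change without carbon against sucrose was -3.42 (SE 0.37, limma adjusted p = 6.03e-06).

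Its neighbours NCU09476 (positions 4401724 to 4402879) and NCU09475 (positions 4399879 to 4401496) were likewise highest in the sucrose libraries. NCU09476 had a mean of 44702 ± 20770 FPKM on sucrose and 3260 ± 1406 without carbon, and NCU09475 had 34439 ± 8443 and 1921 ± 867 (SD, n = 3). Their log2 fold changes were -3.73 and -4.22 (limma adjusted p = 5.18e-05 and 1.75e-05). In Avicel replicate 1, a shallow library, all 3 genes stood above the other 2 Avicel libraries, for NCU09475 at 4936 FPKM against 968 and 1129.

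Neighbouring members were compared for calls in the same direction. Of 235 pairs of neighbouring tested members, 82 (34.9%) were called in the same direction without carbon against sucrose. Of the 7857 other neighbouring pairs, which include those of a member with a gene outside the window, 1576 (20.1%) were. For Avicel against sucrose, which shares the sucrose libraries, the shares were 33.2% and 17.5%. Such shares rise with the share of genes called, which was 63.9% of members and 51.9% of other genes without carbon and 60.9% and 48.3% on Avicel. Neighbouring genes are not independent, and no test was made.

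The longest run among members was 13 genes at the right end of contig 10.4 (positions 5901310 to 5945204, from NCU05166 to NCU10038). Runs were sought among members only, so their length has no comparison outside the window. All 13 were called higher without carbon, and all 13 on Avicel against the same sucrose libraries, which is how the run was found. Over the 11 that were not listed at 0 in every sucrose library, the log2 fold changes ran from 1.00 to 6.63 without carbon and from 1.29 to 6.76 on Avicel. Over all tested genes 34.2% and 30.3% were called higher. Although all 13 were called, the groups of NCU05163 overlapped for no carbon against sucrose. For Avicel against sucrose those of NCU05164, NCU05163 and NCU11791 did. In this stretch NCU05164 and NCU05165 overlap in position, as do NCU05160 and NCU11791, and without strand their reads cannot be told apart.

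The run contains NCU10040 (positions 5939026 to 5940994), the member with the highest mean level of all 299. It had 164, 392 and 213 FPKM on sucrose, 13195, 30261 and 34053 without carbon, 21678, 27930 and 29284 on Avicel, 64842, 61043 and 35168 on pectin, 48717 and 54069 on orange peel powder and 6628 on xylan. Sucrose was far below every other condition, xylan lay between, and the other conditions lay within 5-fold of each other. Its log2 fold change without carbon against sucrose was 6.63 (SE 0.42, limma adjusted p = 6.42e-08).

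Some other genes of the run were low in level, and the size of their changes varied. NCU10070 (positions 5928092 to 5930117) was listed at 0 in sucrose replicate 1, with 5.93 and 1.79 FPKM in replicates 2 and 3 and 125, 338 and 149 without carbon, a log2 fold change of 6.11 (limma adjusted p = 1.2e-06). NCU11792 (positions 5937270 to 5937632) was listed at 0 in all sucrose libraries and in the xylan library, and stood at 25.6 to 53.4 FPKM in all 11 others. NCU10039 (positions 5941461 to 5943316), the neighbour of NCU10040, was higher in steps: 6.98, 7.74 and 5.29 FPKM on sucrose, 55.3, 113 and 102 without carbon, and 561, 809 and 869 on Avicel. Its log2 fold change on Avicel against no carbon was 3.08 (adjusted p = 8.5e-06), the only call for that contrast within the run.

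**Figure D4:**
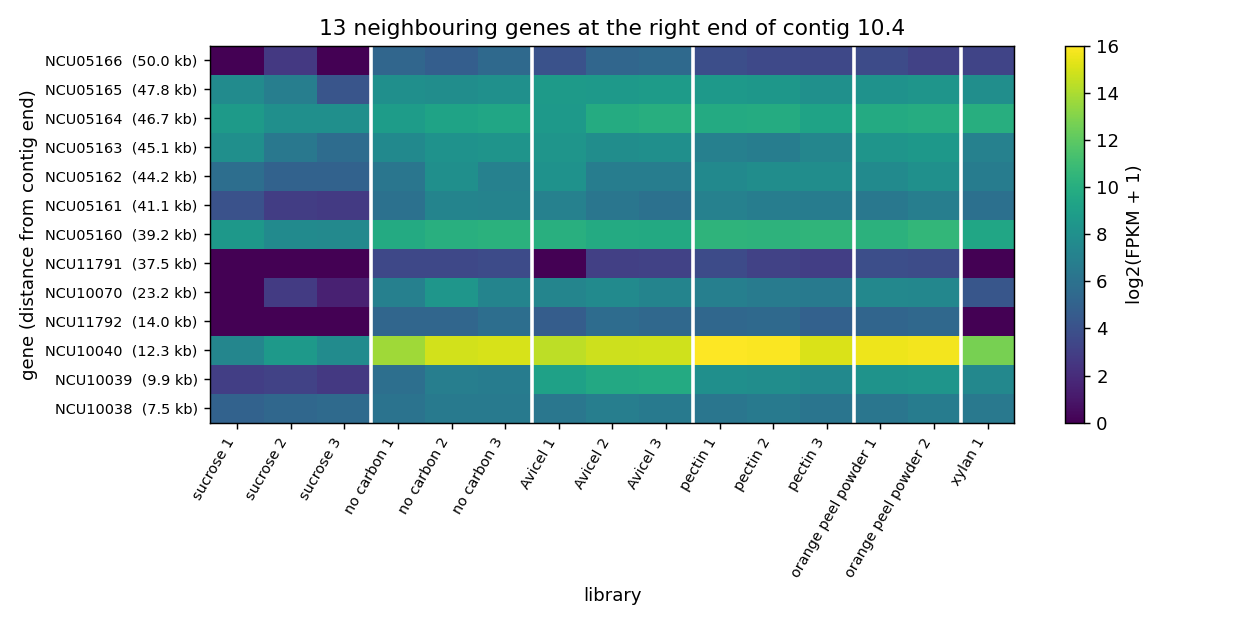
Levels as log2(FPKM + 1) (colour) of the 13 neighbouring genes at the right end of contig 10.4, in rows ordered from inside to the end with the distance of the far gene edge in kb, in the 15 libraries (columns, white lines between conditions). The 3 sucrose columns are darkest in nearly every row, and NCU10040 is the brightest row in all other conditions.

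A run of 6 genes began at the outermost gene of the left end of contig 10.4 (positions 1667 to 21754, NCU10285 to NCU09639, with pks-5 as the fifth). All 6 were called higher without carbon and on Avicel, both against sucrose. Log2 fold changes were 2.19 to 5.48 and 1.19 to 4.97 over 5 of them, NCU10285 being listed at 0 on sucrose. NCU10285 was low throughout, with 3.47, 4.50 and 5.31 FPKM without carbon. On Avicel it was listed at 0 in replicate 1, with 2.47 and 2.22 in replicates 2 and 3 (limma adjusted p = 0.0363 against sucrose). For Avicel against sucrose its groups and those of NCU09639 overlapped. NCU09635 was listed at 0 in sucrose replicate 1, with 2.00 and 2.19 FPKM in the other sucrose libraries, 79.6, 117 and 88.7 without carbon and 64.2, 65.1 and 68.0 on Avicel, so neither group overlapped the sucrose libraries. On pectin it had 21.1, 21.7 and 18.7 FPKM. NCU09635, NCU09636 and NCU09637 were all called lower on pectin and on orange peel powder than without carbon, with log2 fold changes of -2.14, -1.81 and -1.20 on pectin.

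The outermost member of each end shows how far toward the end expression reached. Of the 14 outermost members, 10 were tested, 7 of them were called higher without carbon than on sucrose and 2 lower, beside 34.2% and 18% of all tested genes. The set-6 gene (NCU09495, contig 10.2, positions 4469551 to 4470513), which encodes a protein with a SET domain, a fold found in many histone methyltransferases, is the last gene of its contig. It had 11.9, 11.8 and 4.35 FPKM on sucrose and 112, 122 and 178 without carbon, with no overlap and a log2 fold change of 3.82 (limma adjusted p = 2.22e-06). The first gene of contig 10.5, NCU08882 (positions 19053 to 20498), went the other way, with 1975, 1020 and 954 FPKM on sucrose and 132, 127 and 142 without carbon, a log2 fold change of -3.21 (adjusted p = 2.07e-07).

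The outermost members of 4 ends (NCU09634, NCU11876, NCU10037 and NCU11673) stayed under 2.2 FPKM in every library and were not tested. NCU10031, at the right end of contig 10.1, was tested and not called in any comparison, with 6.71 to 12.8 FPKM over all 15 libraries, and it overlaps another locus.

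Avicel against no carbon sets cellulose beside starvation, within the earlier libraries. Of the 266 tested members 32 were called, or 12%, where 6.37% of all tested genes were. There were 25 higher (9.4%, against 4.03% of all genes) and 7 lower (2.63%, against 2.33%). The median log2 fold change was -0.16 over members and -0.15 over all genes. With the Avicel and no carbon libraries alone in the fit, 20 members were called (19 higher and 1 lower) beside 3.82% of all genes.

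The largest increase on Avicel was that of gh61-5. This gene (NCU08760, contig 10.3, positions 5242633 to 5244087) encodes an enzyme of the family that cleaves cellulose by oxidation. It had 37828, 20619 and 27142 FPKM on Avicel, 24.1, 28 and 31.0 without carbon, 8.09, 25.7 and 14.8 on sucrose, 53.1, 55.8 and 35.8 on pectin, 53.1 and 61.4 on orange peel powder and 209 on xylan. Avicel was far above every other condition, with a log2 fold change of 9.92 against no carbon (SE 0.34, limma adjusted p = 2.42e-09) and 10.79 against sucrose (adjusted p = 3.93e-10).

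The gh3-3 gene (NCU08755, positions 5254975 to 5258174), of the glycoside hydrolase family that holds beta-glucosidases, lies nearer to the same end of contig 10.3. It had 3441, 11177 and 11578 FPKM on Avicel, 463, 262 and 452 without carbon and 2.28, 10.1 and 2.82 on sucrose. NCU08752 (positions 5266346 to 5268297), nearer still, had 1173, 3512 and 4466 FPKM on Avicel, 142, 91.6 and 209 without carbon and, on sucrose, 6.62, 9.64 and 5.09. In both genes the 3 groups had the same order, with the shallow Avicel replicate 1 lowest among the Avicel libraries. The log2 fold changes on Avicel against no carbon were 4.33 and 4.23 (limma adjusted p = 0.000139 and 5.58e-05), and those without carbon against sucrose were 6.20 and 4.15.

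The xylanase-family gene gh10-3 (NCU04997, contig 10.6, positions 4144785 to 4146414) was highest on orange peel powder. It had 184, 101 and 107 FPKM on Avicel, 3.43, 8.11 and 3.03 without carbon, 217, 233 and 289 on pectin, 781 and 708 on orange peel powder, 23.4, 7.33 and 6.46 on sucrose and 20.2 in the xylan library. The log2 fold change was 4.54 on Avicel, 5.49 on pectin and 7.09 on orange peel powder, each against the same 3 libraries without carbon (limma adjusted p = 2.86e-05, 4e-06 and 1.79e-06). The second gene of that family near a contig end, gh10-4 (NCU07130), was listed at 0 on sucrose and on xylan and reached at most 3.35 FPKM in the other conditions.

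Close to the very ends, NCU07143 and NCU09524 were higher on Avicel by a similar size. NCU07143 (contig 10.6, positions 1359 to 2581), the first gene of its contig, had 20034, 11819 and 15563 FPKM on Avicel, 86.3, 250 and 131 without carbon and 3457 on xylan. NCU09524 (contig 10.3, positions 14200 to 15407) had 3812, 2200 and 2901 FPKM on Avicel, 13.2, 34.4 and 16.4 without carbon and 10.8 on xylan. The groups on Avicel and without carbon did not overlap, and the log2 fold changes were 6.76 and 7.14 (limma adjusted p = 7.82e-06 and 2.38e-06). NCU09523 and NCU09522, next to NCU09524, were called higher as well and formed the only run of 3 for this comparison.

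**Figure D5:**
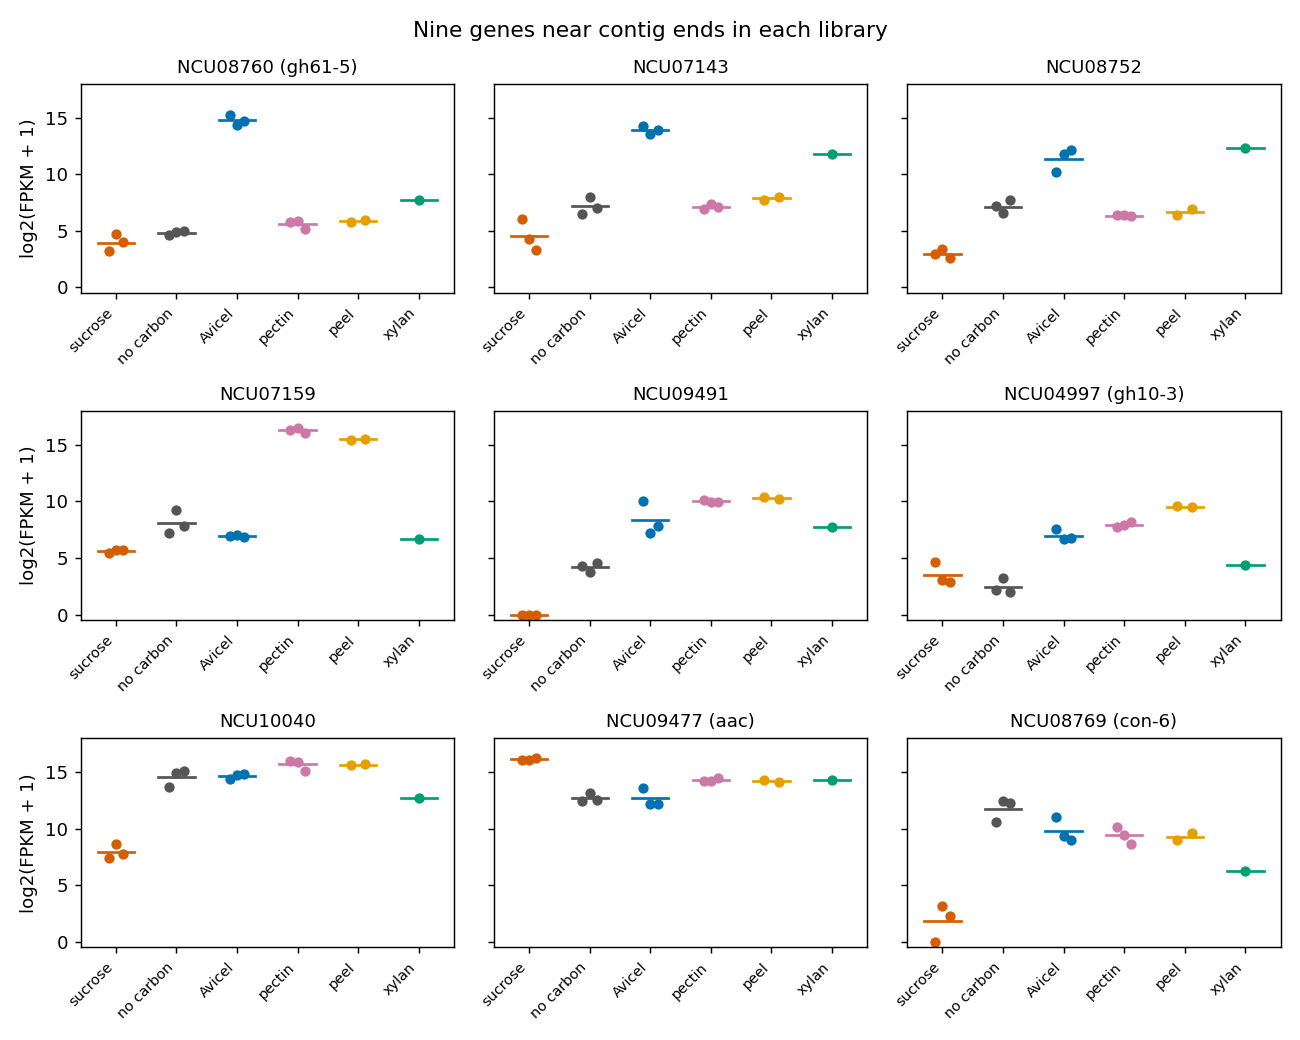
Levels as log2(FPKM + 1) of 9 genes near contig ends in each of the 15 libraries by carbon source (points, 1 for each library; lines, the mean of the group; peel is orange peel powder). The gh61-5 gene stands near 15 on Avicel alone, NCU07159 near 16 on pectin and orange peel powder, aac is highest on sucrose, and con-6 is highest without carbon.

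Few members were lower on Avicel than without carbon. NCU05006 (contig 10.6, positions 4112113 to 4113891) had 229, 182 and 179 FPKM on Avicel and 1067, 480 and 380 without carbon, a log2 fold change of -1.56 (limma adjusted p = 0.00984, and 0.0916 with the 2 groups alone). Its neighbour NCU05005, described above, had 99.7, 257 and 260 FPKM on Avicel against 368, 623 and 952, a log2 fold change of -1.67 (adjusted p = 0.0411). NCU09611 (contig 10.2) had 29.8, 76.4 and 75.9 FPKM against 138, 185 and 183, a log2 fold change of -1.57 (adjusted p = 0.0328). The groups did not overlap, but the last pair of calls were lost without Avicel replicate 1 (adjusted p = 0.126 for NCU05005 and 0.0955 for NCU09611), without no carbon replicate 2 (0.0883 and 0.0815) or replicate 3 (0.159 and 0.105). The call of NCU05005 was also lost without Avicel replicate 2 (0.0506), and that of NCU09611 without no carbon replicate 1 (0.0572). NCU09289, the fourth named for a decrease, stood at 12.2, 3.04 and 7.62 FPKM without carbon and was listed at 0 on Avicel (adjusted p = 0.0102, and 0.131 with quantile normalization). Its levels were low, and it was not tested where a mean of 5 FPKM was required. Of the 6 conidial markers, 3 were lower in every Avicel library than in any without carbon.

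Avicel against sucrose, which shares its libraries with the comparisons above, had 162 of 266 members called, or 60.9%, beside 48.6% of all genes. Of these, 131 were higher (49.2%, against 30.3%) and 31 lower (11.7%, against 18.4%), with a median log2 fold change of 1.11 over members and 0.24 over all genes. The excess was not limited to the window. Of tested genes at 75 to 150 and 150 to 300 kb, 44.5% and 40.0% were higher and 13.6% and 13.8% lower. With quantile normalization 98 members were higher and 46 lower. Of all 8700 tested genes 42.2% were called, 1776 higher and 1893 lower. The medians were 0.44 over members and -0.07 over all genes. Beside gh61-5, the largest increases were those of gh3-3 (log2 fold change 10.53), NCU09524 (10.07) and NCU07143 (9.36), and the largest decreases those of NCU09488 (-5.53), NCU09648 (-5.04), hsp70-1 (-4.32) and NCU09475 (-4.26). Each of these had non-overlapping groups and a limma adjusted p of at most 2.55e-05.

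Pectin and orange peel powder were each compared with the same 3 libraries without carbon. On pectin 75 of 266 members were called, or 28.2%, beside 21.2% of all genes, with 38 higher (14.3%, against 10.4%) and 37 lower (13.9%, against 10.9%). On orange peel powder 83 were called, or 31.2%, beside 21.1% of all genes, with 39 higher (14.7%, against 10.4%) and 44 lower (16.5%, against 10.7%). The latter count rested on both libraries: without orange peel powder replicate 1 it was 32, beside 9.28% of all genes, and without replicate 2 it was 52, beside 14.5%, the lone library being assumed to vary like the other groups. The median log2 fold change was -0.13 over members on pectin and -0.08 on orange peel powder, beside -0.12 and -0.14 over all genes. All 6 conidial markers were lower in every library of both substrates than in any without carbon.

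NCU07159 (contig 10.5, positions 6393940 to 6395650) had the largest increase on both substrates. It had 79920, 92609 and 68186 FPKM on pectin, 42811 and 48019 on orange peel powder, 148, 613 and 226 without carbon, 125, 126 and 114 on Avicel, 41.8, 49.9 and 50.3 on sucrose and 99.8 on xylan. Every pectin and orange peel powder library stood far above every library of the other conditions. The log2 fold change against no carbon was 8.18 on pectin and 7.36 on orange peel powder (limma adjusted p = 3.36e-08 and 3.43e-07). In the pectin libraries the members together held 5.36% to 6.39% of all FPKM, and 5.35% and 5.53% on orange peel powder, against 2.31% to 3.79% in the 10 other libraries.

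NCU09491 (contig 10.2, positions 4451292 to 4452364), 1 of the 2 members among 39 genes of a plant cell wall degradation list, was listed at 0 in all 3 sucrose libraries. It had 18.8, 12.3 and 22.2 FPKM without carbon, 1146, 992 and 1003 on pectin, 1374 and 1197 on orange peel powder, 207 on xylan and 1071, 146 and 221 on Avicel. Every library on a polysaccharide stood above those without carbon, and the shallow Avicel replicate 1 stood apart from the other Avicel libraries. The log2 fold changes against no carbon were 5.84, 6.13 and 4.16 on pectin, orange peel powder and Avicel (limma adjusted p = 1.27e-05, 3.09e-05 and 0.000317). The other member of the list is gh61-5.

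At the right end of contig 10.6, NCU04994 (positions 4154030 to 4155400) had 3913, 3416 and 3632 FPKM on pectin, 1129 and 1046 on orange peel powder and 177, 223 and 367 without carbon. Its log2 fold changes against no carbon were 3.90 and 2.15 (limma adjusted p = 6.35e-05 and 0.00733). NCU09648, low without carbon as given above, had 85.2, 123 and 342 FPKM on pectin, all under its 359 to 464 on sucrose. On orange peel powder it had 461 and 350, near the sucrose range. Its log2 fold changes against no carbon were 3.47 on pectin and 4.85 on orange peel powder. The genes hsp70-1 and aac were also higher on both substrates than without carbon, hsp70-1 with log2 fold changes of 3.01 and 2.80 and aac with 1.62 and 1.51. NCU09474 to NCU09477, which include aac, formed the longest run called higher on pectin, with 4 genes.

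The largest decreases on these substrates included genes with high levels without carbon, given here, and NCU08866 and NCU09289, which were low without carbon. NCU05005 had 160, 122 and 61.7 FPKM on pectin and 36.0 and 67.5 on orange peel powder, against 368 to 952 without carbon, with log2 fold changes of -2.49 and -3.58 (limma adjusted p = 0.0017 and 0.000444). NCU08770, next to con-6, had 51.8, 26.7 and 39.6 FPKM on pectin and 19.98 and 36.5 on orange peel powder, against 149 to 941, with log2 fold changes of -3.07 and -3.54 (adjusted p = 0.00374 and 0.00396). NCU10537 (contig 10.6) had 31.1 and 48.8 FPKM on orange peel powder against 205, 208 and 300, a log2 fold change of -2.55 (adjusted p = 2.34e-05). No library of either substrate reached the range without carbon in these 3 genes.

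The con-6 gene had 1158, 692 and 400 FPKM on pectin, a log2 fold change of -2.32 against no carbon (limma adjusted p = 0.0388). That call was lost without pectin replicate 2 or 3 (adjusted p = 0.0858 and 0.135) and without no carbon replicate 2 or 3 (0.113 and 0.122). The calls of NCU08770 and NCU09289 on orange peel powder were lost without its replicate 1 (0.0585 and 0.066), and that of NCU09289 also without replicate 2 (0.0516). NCU08866 had 4.31, 1.92 and 5.21 FPKM without carbon and was listed at 0 on both substrates. It was not tested where a mean of 5 FPKM was required.

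Orange peel powder against pectin, within the libraries of the present study, showed few differences near contig ends. Of 266 members 2 were called, both higher on orange peel powder (0.752%, beside 0.31% of all genes, of which 0.149% were higher and 0.161% lower). They lie close together on contig 10.6. The ci-1 gene (NCU05001, positions 4126014 to 4127851) had 1328 and 1164 FPKM on orange peel powder, 151, 156 and 152 on pectin and 139 on xylan, and 76.1 to 331 in the 9 earlier libraries. Orange peel powder alone was high, with a log2 fold change of 3.02 against pectin (SE 0.29, limma adjusted p = 0.000549).

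NCU10597 (positions 4119305 to 4122109) had 48.5 and 44.5 FPKM on orange peel powder and 11.8 to 19.2 in all other libraries, with no overlap. Its log2 fold change against pectin was 1.56 (SE 0.25, limma adjusted p = 0.0196). This call was lost without pectin replicate 2 or 3 (adjusted p = 0.096 and 0.0657) and without orange peel powder replicate 1 or 2 (0.427 and 0.203). With only pectin and orange peel powder in the fit, 7 members were called, beside 1.84% of all genes.

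The xylan condition had 1 library, so its differences have no replicate check. Of 230 members with at least 10 FPKM on xylan or on average on pectin, 18 (7.83%) were at least 2-fold higher on xylan and 44 (19.1%) at least 2-fold lower, beside 6.84% and 12.2% of 7722 genes. NCU08752, NCU07143 and NCU09652, all called higher on Avicel, led the members that were higher on xylan. NCU08752 stood at 5196 FPKM (the authors' deposited bounds, 5052 to 5340) against 80.5 ± 1.56 on pectin (SD, n = 3), a level near that of its highest Avicel library, 4466. NCU07143 stood at 3457 (3339 to 3575) against 141 ± 22, and NCU09652 (contig 10.4, positions 73571 to 75325) at 6932 (6766 to 7099) against 501 ± 54.5.

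Lower on xylan than on pectin were NCU07159, with 99.8 FPKM (bounds 79.9 to 120) against 80238 ± 12215, and NCU04994, with 132 (109 to 156) against 3654 ± 249. NCU04998, at the same end as NCU04994, was listed at 0 on xylan and had 30.5, 136 and 18.8 FPKM on pectin. NCU09909 (contig 10.1) was at 80.5 FPKM on xylan, between its 99.9 to 252 on sucrose and its 3.87 to 7.35 on pectin.

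For the 5 members with the highest mean level, the gene of the most similar pattern over the 6 condition means was found by Pearson's r of log2(FPKM + 1), as a description over 6 points. NCU10040 was most like NCU04642 (r = 0.996), a gene of contig 10.5 that spanned 144 to 366 FPKM, a far narrower range. NCU07159 was most like NCU09868 of contig 10.6 (r = 0.997), which had 1974 FPKM on pectin, 1509 on orange peel powder and 65.2 to 121 elsewhere. The aac gene was most like NCU05890 (r = 0.999), which is itself within 75 kb of the left end of contig 10.7, at 734 FPKM on sucrose and 109 without carbon. NCU09476 and NCU09475 were most like NCU07936 and NCU06743 (r = 1.000 each).

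The 26 members with a gene symbol of their own, all tested, show how varied the neighbourhood of the ends is. Without carbon against sucrose, 8 were called higher and 6 lower (53.8% in all, close to the 52.3% of all tested genes), and 17 (65.4%) were called in at least 1 of the 6 comparisons, beside 61.0% of genes outside the window. Among those called in none were nuo21.3c (NCU05009) and nuo14 (NCU09299), subunits of respiratory complex I, with 886 to 1449 and 784 to 1368 FPKM over all 15 libraries, acp-1 (NCU05008), a mitochondrial acyl carrier protein (818 to 2093), and erg-3 (NCU08762), of ergosterol synthesis (534 to 1036). The DNA repair genes uvs-3 (NCU09644) and mus-41 (NCU09516) and the kinase gene cdc7 (NCU11410) were likewise called in none. The catalase gene cat-4 (NCU05169) was called higher on pectin and on orange peel powder than without carbon, with 64.2 to 77.4 FPKM against 27.9 to 42.5, a log2 fold change of 1.01 and 1.06.

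Over all 6 comparisons, which share control libraries, 195 of the 266 tested members (73.3%) were called in at least 1, beside 61.0% of the other tested genes, and 71 were called in none. Of the members described with values, ci-1, stk-52, NCU04994, NCU05166, NCU11791, NCU11792, NCU11876 and NCU11673 carried another identifier at the same position in the earlier tables, and his-6, like the pairs given above, overlaps another locus.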

How the data were processed

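Polyadenylated RNA of mycelia was sequenced, per the labels' protocols. The authors deposited FPKM values for each of 15 libraries: 6 gene-level tables and 9 transcript-level tables, of which the latter also hold coverage (a signal) and the length of each transcript, per the file headers. TopHat 1.2.0, Cufflinks 0.9.3 and Cuffdiff are listed, without roles, per the submitters' processing notes. As for genome build and annotation, neither is given in the sources used here.

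Tables were joined by position (9733 loci) and transcripts of a locus summed. Identifiers differed between table kinds at 863 loci, 38 of them members. Gene-level identifiers were kept: 18 of the 38 lay among their neighbours in the reference order, against 0 of the transcript-level ones, and 20 were absent. Positions count from 1. Symbols come from RefSeq (its gene table, assembly NC12), which held 279 members, 26 with a symbol (8.70%, against 11.5% of other genes). It holds no product descriptions, so lists defined by words in them were not run. A pooled table of the authors was not used. Paralogs may share reads.

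Depth was derived as coverage per FPKM and is unknown for the 6 newer libraries. FPKM are not counts, so limma 3.58.1 in R 4.3.3 was fitted with a variance trend to log2(FPKM + 1) of the 14 libraries of 5 replicated groups, on the 8700 genes averaging 1 FPKM or more (9 residual and 2.94 prior degrees of freedom), two-sided, adjusted over all genes. The code was tested on simulated data. Replicate numbers were taken to pair where 3 same-numbered pairs each correlated over 0.1 in their deviations from group means, which only Avicel against sucrose met (r = 0.181, 0.12 and 0.179); replicate 1 is the shallow library in both. Orange peel powder against pectin had 2 pairs (0.107 and 0.213), too few.

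Members and lists were chosen with earlier results of these data known. Named members are, for each comparison, up to 4 called in each direction with the largest change and no overlap of groups; the 5 highest; the outermost at each end; those with a symbol; those in the 4 longest runs; and up to 4 on each side for xylan. Members outside this rule (NCU08771, NCU08768, NCU09474, NCU09522 and NCU09523) are named as parts of runs, after their values were seen. No test was made of members against other genes. Just inside the 75 kb limit lay NCU09653 (74.6 kb) and hsp70-1 (73.7 kb), just outside NCU08862 (75.0 kb) and pks-2 (76.9 kb).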

Additional observations from a re-analysis of the deposited data

How the results depend on the processing

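The members called were recounted with a pseudocount of 0.1 or 5, without the filter or with it raised to 5 FPKM, other scalings, limma without the trend, the 2 groups alone, a replicate block, a join by identifier, both shallow libraries left out, windows of 50 and 100 kb, and without each replicate. For no carbon against sucrose the count of 170 became 113 with the 50 kb window, where fewer genes were tested. For Avicel against no carbon 32 became 20 with the 2 groups alone. For orange peel powder against pectin 2 became 1 with the replicate block, 1 when joined by identifier, 7 with the 2 groups alone and 7 without both shallow libraries. Other replicate block counts were 170, 28, 163, 72 and 73, in the order of the text, and only the pairing of Avicel with sucrose met the check. Without each replicate in turn the counts were 160 to 168 (no carbon against sucrose), 25 to 33 (Avicel against no carbon), 154 to 170 (Avicel against sucrose), 64 to 74 (pectin), 32 to 80 (orange peel powder against no carbon) and 1 to 2 (against pectin). The median level difference to other genes became, with the 50 kb window, -2.04 on sucrose, -0.59 on pectin, -0.59 on orange peel powder and -0.70 on xylan; with the 100 kb window -1.30 on sucrose; and with a pseudocount of 5, -1.40 on sucrose and -0.30 on orange peel powder. Where not stated, the cause was not tested. Without each replicate it was -1.55 to -1.51 on sucrose. Of 699 values of 42 named results, 667 kept their call, 32 lost it and 0 reversed; beside those in the report, con-6 (0.0537), NCU05005 (0.0533), NCU09611 (0.0626) and NCU10597 (0.0691) lost it with the block, con-6 (0.196), NCU05005 (0.0512) and NCU08770 (0.0523) with a pseudocount of 0.1, NCU05005 (0.137) and NCU09611 (0.0916) with the 2 groups alone, NCU05005 (0.101) without both shallow libraries (limma adjusted p), and NCU08866 on pectin fell under the fold threshold with a pseudocount of 5. Low values are least precise in Avicel replicate 1, sucrose replicate 1 and xylan.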
